A study of Mus musculus with 6 samples.

Results

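The genes described are 84 developmental transcription factor genes of the SOX, PAX, sine oculis-related, LHX, TBX, IRX, DLX, MSX, MEIS, PBX, VAX, SALL and GATA families. They were chosen by gene symbol among the 24391 genes of the count files, as a family name followed by a number and at most 1 letter. Sox2, Sox5, Sox9, Sox10 and Pax3, which belong to the neural crest programme, were left out. The rule itself uses no measured value, but it was set with earlier results of these data known.

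Proteins of these families bind DNA and set position, lineage and cell type in the embryo. SOX proteins bind through an HMG box, PAX proteins through a paired domain, TBX proteins through a T-box, GATA and SALL proteins through zinc fingers, and the sine oculis-related, LHX, IRX, DLX, MSX, MEIS, PBX and VAX proteins through a homeodomain. Many of the genes are expressed in a few territories only, while others, such as Sox4 and Pbx2, are widely expressed. In connective tissue and in neural crest derivatives the combination that is kept on in cultured cells often records where in the body the cells came from.

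RNA sequencing was performed on tumour cells of iBIP mice, a melanoma model kept on a mixed FVB and B6 background. Both groups derived from animals with Tyr-CreERT2, in which the tyrosinase promoter of pigment cells drives a tamoxifen-dependent Cre, together with Rosa26-rtta and the doxycycline-dependent transgene TetO-BRAFV600E. Both also carried floxed Ink4a/Arf alleles, given as INK/ARFL/L, received doxycycline, and had 4-OHT, the active form of tamoxifen, applied to the ears. The KMT2D WT group (WT, 3 libraries) came from iBIP;KMT2D+/+ animals and the KMT2D KO group (KO, 3 libraries) from iBIP;KMT2DL/L animals, with 2 floxed alleles of Kmt2d, which encodes a histone H3 lysine 4 methyltransferase of enhancers. The ages of the animals, and whether a group is 1 line or clone, are not given in the sources used here. The labels do not say either whether separate cultures or tumours gave the libraries of a group. All p-values therefore measure a spread among libraries that may be technical. A difference between the genotypes cannot be told apart from a difference between the tumours sampled.

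Total counts ran from 43168605 to 59360068 fragments in WT and from 55594979 to 79718782 in KO. Counts are given as CPM, counts per 1000000 on library sizes scaled by the TMM method, and a positive log2 fold change is a higher level in KO. Kmt2d itself had 89.3 ± 10.6 CPM in WT and 74.0 ± 5.32 CPM in KO (SD, n = 3), with overlapping libraries and a log2 fold change of -0.27 (edgeR adjusted p = 0.0075). That call was lost without KO replicate 2 (adjusted p = 0.0578, where all alternatives gave 0.000574 to 1.0), and a whole-gene count does not show whether a floxed part was removed. The labels call the cells melanoma tumour cells, but 11 of 12 melanocyte markers measured were under 1 CPM in both groups, Gpr143 had no count, and Pmel had 0.698 and 1.03 CPM. Of 10 fibroblast markers 8 exceeded 1 CPM in a group, and their summed level ran from 5591 to 5802 CPM in WT and from 21240 to 22240 CPM in KO. Col1a1, Col1a2 and Col3a1 gave most of the counts in these sums. Of the 10 fibroblast markers 6 were higher in KO, 3 lower and 1 not called. Pdgfra had 557 CPM in WT and 1208 CPM in KO, while Dpt had 44.8 CPM in WT and 0.839 CPM in KO. The extraction protocol of the labels names cerebellar tissue, and 11 of 14 cerebellum markers were under 1 CPM in both groups. In bulk RNA, fewer cells of a type and less RNA per cell cannot be told apart.

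Most of the genes were under 1 CPM in both groups. In WT 26 of 84 members had a mean of at least 1 CPM, and in KO 33 did. At that level 23 members were on in both groups, 3 in WT only (Sall1, Sox11 and Sox30), 10 in KO only and 48 in neither. The 10 of KO were Vax2, Tbx20, Tbx15, Tbx2, Tbx4, Tbx6, Dlx3, Dlx4, Gata3 and Irx2, and of these Tbx6 was not called different. Among all 24391 genes of the files, 11509 reached 1 CPM in both groups, 678 in WT only, 561 in KO only and 11643 in neither. Together the 84 genes took 0.0695% to 0.0761% of the counts of WT libraries and 0.109% to 0.113% of those of KO libraries.

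**Figure D1:**
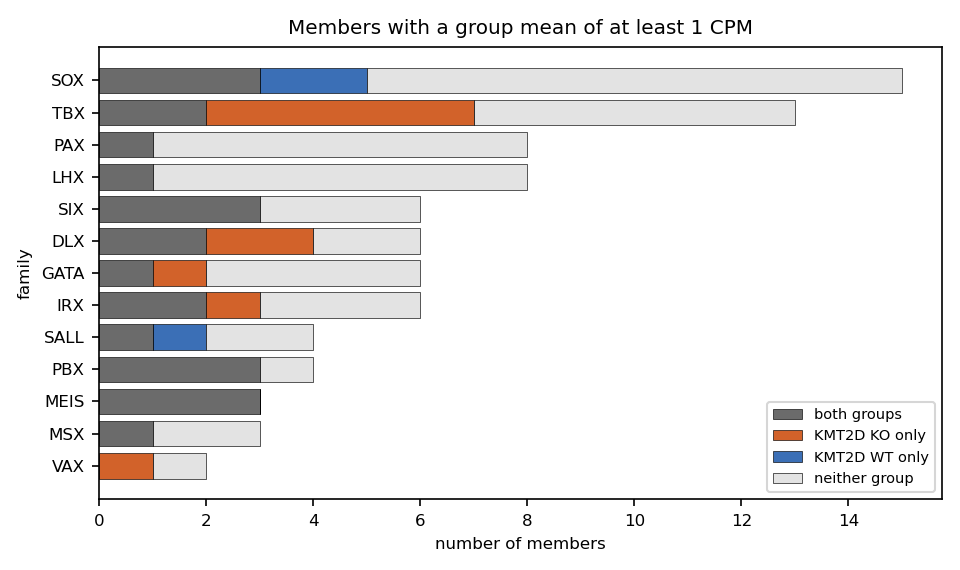
Number of members (horizontal axis) of each family (vertical axis) by whether the group mean reached 1 CPM in both groups, in KMT2D KO only, in KMT2D WT only or in neither. The TBX family holds 5 of the 10 genes that reached that level in KMT2D KO only, and 7 of 8 PAX and 7 of 8 LHX genes reached it in neither group.

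The quasi-likelihood test of edgeR was run across all genes, and a gene was called at an adjusted p under 0.05. The low-count filter kept 44 of the 84 members, and the 40 left out had at most 21 counts, or 0.339 CPM, in any library. Of the 44, 37 were called, 25 higher and 12 lower in KO. Among all 14579 genes tested, 71.0% were called, 35.4% higher and 35.5% lower, beside 84.1% of the members tested. Values of WT and KO did not overlap in 36 of the 44 members, against 74.3% of all genes tested. A member that passed the filter through its level in 1 group only had to differ, so these counts describe the members tested and do not speak for all 84. Without the filter, 78 members with a count could be tested and 39 were called, where the share of all genes was 52.5%. Of the 44 tested members 20 were called with an absolute log2 fold change above 2, 13 higher and 7 lower, where 13.0% of all genes tested were (6.20% higher and 6.78% lower). The median log2 fold change was 0.63 over the tested members and 0.00405 over all genes tested.

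**Figure D2:**
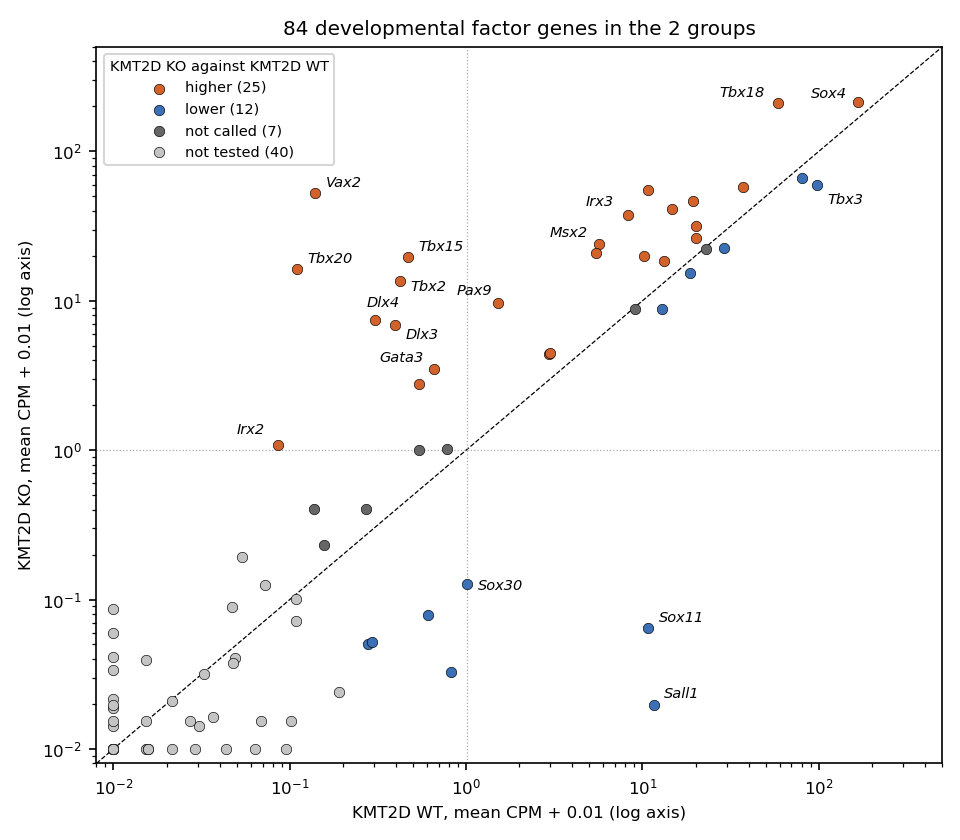
Mean CPM of each of the 84 genes in KMT2D WT (horizontal) and KMT2D KO (vertical), each with 0.01 added, on log axes; colours give the edgeR call and dotted lines mark 1 CPM. Vax2, Tbx20, Tbx15, Tbx2, Dlx3 and Dlx4 lie far above the dashed line of equal levels, Sall1 and Sox11 far below it, and the abundant genes Sox4 and Tbx3 lie near it.

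The promoters of 5 genes that switched between a low and a higher level are printed because the dense CpG dinucleotides in them are a feature that genes of both directions shared. They are the members given library by library in the text that were under 1 CPM in 1 group and had 1 entry in the RefSeq promoter table of build GRCm38.p6. Each shows the 250 bases before the transcription start, 5′ to 3′ on the strand of the gene, with every CpG in capitals. Gata3, Irx2 and Tbx20 were higher in KO, and Sox11 and Sox30 were higher in WT.
Gata3, chr2:9878601-9878850, minus strand: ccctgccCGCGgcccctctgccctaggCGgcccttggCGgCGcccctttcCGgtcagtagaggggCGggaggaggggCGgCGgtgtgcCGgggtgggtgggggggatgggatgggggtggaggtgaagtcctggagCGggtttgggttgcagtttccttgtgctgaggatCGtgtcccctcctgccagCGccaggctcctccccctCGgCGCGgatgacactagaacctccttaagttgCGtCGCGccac
Irx2, chr13:72628570-72628819, plus strand: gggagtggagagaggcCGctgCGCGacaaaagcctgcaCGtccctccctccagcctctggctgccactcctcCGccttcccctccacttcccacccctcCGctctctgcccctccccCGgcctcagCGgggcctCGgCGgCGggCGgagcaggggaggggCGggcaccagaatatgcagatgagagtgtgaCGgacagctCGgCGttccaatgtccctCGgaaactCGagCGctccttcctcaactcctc
Tbx20, chr9:24774304-24774553, minus strand: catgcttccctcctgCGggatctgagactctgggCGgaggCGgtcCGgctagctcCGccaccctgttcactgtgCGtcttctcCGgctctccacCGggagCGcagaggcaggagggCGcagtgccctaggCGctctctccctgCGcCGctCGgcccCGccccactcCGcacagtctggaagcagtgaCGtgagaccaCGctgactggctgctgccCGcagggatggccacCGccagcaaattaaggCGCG
Sox11, chr12:27342719-27342968, minus strand: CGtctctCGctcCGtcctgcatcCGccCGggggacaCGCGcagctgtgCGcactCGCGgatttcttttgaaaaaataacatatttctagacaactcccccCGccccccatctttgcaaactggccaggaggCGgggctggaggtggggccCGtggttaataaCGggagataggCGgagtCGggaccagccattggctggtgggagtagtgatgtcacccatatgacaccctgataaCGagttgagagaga
Sox30, chr11:45980060-45980309, plus strand: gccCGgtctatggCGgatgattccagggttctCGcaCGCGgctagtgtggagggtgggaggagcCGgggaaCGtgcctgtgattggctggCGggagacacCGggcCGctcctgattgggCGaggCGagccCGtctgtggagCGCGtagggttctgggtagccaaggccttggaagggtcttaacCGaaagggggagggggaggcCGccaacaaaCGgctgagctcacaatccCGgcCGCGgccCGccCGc
These promoters held 19 CpG in Gata3, 19 in Irx2, 22 in Tbx20, 17 in Sox11 and 23 in Sox30. The table held 79 promoters of 59 of the 84 members, and their median was 14 CpG in 250 bases, against 6 over all 32851 promoters of the table. The median was 13.5 in promoters of members called higher, 13 in those of members called lower, 15 in those of members that reached 1 CPM in a group and 12.5 in those of members that did not. The medians of promoters of risen and fallen genes lay close together, but genes with several promoters weigh more in them. The risen set held 22 promoters of 18 genes. The fallen set held 15 promoters of 7 genes, several of them of Sox6 with 1 to 10 CpG each. The closeness of the medians therefore does not compare gene with gene. Promoters of 1 gene can overlap and are not independent.

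Short motifs of the families were searched on both strands of the same 250 bases, with any overlap allowed. The homeobox motif TAATTA was found in 3.8% of members' promoters and in 4.84% of all promoters, and the GATA motif AGATAA in 6.33% and 9.99%. The SOX motif ACAATG was found in 8.86% and 10.69%, and the T-box motif GGTGTGA in 1.27% and 3.33%. For none of the 4 motifs was the share in members above that of all promoters. A match is a string of letters and no evidence of binding.

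Genes of the VAX and IRX families are homeodomain factors of eye, heart and head. Of 2 VAX genes 1 was tested and of 6 IRX genes 3, and all of these were higher in KO, as 35.4% of all genes tested were. Vax2 and Irx2 passed the filter through KO only, which fixed their direction. Vax2, which specifies the ventral retina, had 0.0342, 0.0646 and 0.291 CPM in WT and 54.0, 52.3 and 51.9 CPM in KO, each in the order of replicates 1, 2 and 3. The WT libraries held 2 to 13 fragments of it and the KO libraries 2758 to 4143, so the groups were far apart. Its log2 fold change was 8.81 (SE 0.22, edgeR adjusted p = 3.7e-14), the largest rise among the 84 genes. Its paralogue Vax1 had 1 fragment in all 6 libraries.

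Irx3, a factor of heart conduction and hypothalamus, had 7.63, 9.01 and 8.05 CPM in WT and 37.8, 36.5 and 38.7 CPM in KO (log2 fold change 2.19, SE 0.09, adjusted p = 9.0e-12). Its neighbour Irx5 rose less, from 13.2 ± 1.97 to 18.5 ± 0.988 CPM (0.49). Irx2, of the other Iroquois cluster (mm9 chromosome 13, 72766426 to 72771642), had 0.0684, 0.0484 and 0.112 CPM in WT and 0.977, 1.35 and 0.902 CPM in KO (3.83, SE 0.53, adjusted p = 1.3e-05). In all 3 genes every KO library exceeded every WT library, although Irx2 stayed scarce. Irx1, Irx4 and Irx6 were too low to test.

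Most T-box genes that could be tested were higher in KO, although Tbx20 passed the filter through KO only. Of 13 members 7 were tested, 5 rose (35.4% of all genes tested did), Tbx3 fell and Tbx6, a factor of early mesoderm, was not called (0.771 and 1.01 CPM). Tbx20, a cardiac factor (mm9 chromosome 9, 24525256 to 24578747), had 0.103, 0.0161 and 0.179 CPM in WT and 15.8, 16.0 and 17.0 CPM in KO (log2 fold change 7.44, SE 0.26, adjusted p = 2.2e-12). Tbx15, which patterns dermis, coat and external ear (mm9 chromosome 3, 99057683 to 99158183), had 0.393, 0.355 and 0.626 CPM in WT and 19.9, 18.9 and 20.2 CPM in KO (5.46, SE 0.17, adjusted p = 4.0e-13). Both were below 1 CPM in each WT library and above 15 CPM in each KO library.

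Tbx2, a T-box repressor, rose from 0.413 ± 0.127 to 13.6 ± 0.381 CPM (5.07). The hindlimb factor Tbx4 beside it rose from 0.533 ± 0.344 to 2.77 ± 0.301 CPM (2.42). Tbx18, a factor of mesenchyme in heart, ureter and somite, was already abundant at 58.5 ± 0.999 CPM and rose to 210 ± 5.81 CPM (1.84). Tbx3, a repressor closely related to Tbx2, fell from 97.7 ± 7.32 to 59.7 ± 1.80 CPM (-0.71, adjusted p = 1.2e-07). The 2 close relatives thus moved in opposite directions, Tbx2 from near silence and Tbx3 from a high level. The remaining T-box genes, among them Tbx1, Tbx5 and Tbx22, were not tested.

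In the DLX family, homeodomain factors of forebrain, jaws and skin, the pairs of neighbouring genes behaved differently. Dlx3, a factor of hair, teeth and placenta, had 0.359, 0.484 and 0.313 CPM in WT and 6.11, 5.99 and 8.59 CPM in KO (log2 fold change 4.13, SE 0.24, adjusted p = 7.1e-10). Dlx4 (mm9 chromosome 11, 95001761 to 95007115) had 0.393, 0.291 and 0.201 CPM in WT and 6.70, 7.86 and 7.86 CPM in KO (4.62, SE 0.22, adjusted p = 9.4e-11). Both went from low to moderate levels without overlap, and Dlx4 shares exonic sequence with A730090H04Rik, so its counts are uncertain. Dlx2 fell from 13.0 ± 1.90 to 8.74 ± 0.870 CPM (-0.57). Dlx1, which shares exonic sequence with Dlx1as, had 9.06 ± 0.754 and 8.76 ± 0.297 CPM and was not called (adjusted p = 0.70). Dlx5 had no count in any library and Dlx6 had 1.

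The related factor Msx2, active in skull and ectodermal organs (mm9 chromosome 13, 53562250 to 53568149), had 4.84, 5.22 and 6.95 CPM in WT and 24.1, 25.5 and 22.8 CPM in KO (log2 fold change 2.10, SE 0.12, adjusted p = 9.2e-10). Pax9, a factor of teeth and pharyngeal pouches (mm9 chromosome 12, 57796626 to 57812217), had 1.505, 1.61 and 1.39 CPM in WT and 9.83, 9.29 and 9.63 CPM in KO (2.67, SE 0.14, adjusted p = 2.8e-10). Gata3, a factor of T cells and of the hair follicle (mm9 chromosome 2, 9778705 to 9800227), had 0.479, 0.872 and 0.581 CPM in WT and 3.17, 3.43 and 3.93 CPM in KO (2.43, SE 0.26, adjusted p = 7.9e-07). In these 3 genes too the groups did not overlap. Pax9 was the only member of its family that passed the filter. Gata2, a factor of blood and endothelial development, was the more abundant GATA gene and fell from 29.1 ± 2.78 to 22.7 ± 0.128 CPM (-0.36).

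Markers of epithelium and blood were examined beside Dlx3, Dlx4, Msx2 and Gata3. The summed level of 10 keratinocyte markers ran from 20.7 to 24.1 CPM in WT and from 73.8 to 80.0 CPM in KO, with 3 higher, 1 lower, 5 not called and 1 not tested. In KO most of the counts in that sum came from Perp (7.69 and 57.6 CPM) and Trp63 (0.784 and 10.2 CPM). The keratin genes Krt5 (0.465 and 0.375 CPM) and Krt14 (1.35 and 1.43 CPM) were low in both groups. Of 11 immune markers found, with sums of 27.7 to 32.3 CPM in WT and 9.42 to 11.0 CPM in KO, 1 rose and 5 fell. Most of the counts in these sums came from Cd14 (16.8 and 6.05 CPM) and Cd68 (9.03 and 2.21 CPM), which both fell. Csf1r (2.56 and 0.957 CPM) fell too, and the risen gene was Cd4 (0.246 and 0.623 CPM). The T cell gene Cd3e had a mean of at most 0.0149 CPM in either group and the B cell gene Ms4a1 no count.

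Sine oculis-related factors act with EYA proteins in muscle, ear and kidney progenitors. Six4 rose from 14.7 ± 0.554 to 41.0 ± 3.90 CPM (log2 fold change 1.48), and Six5, which lies in the myotonic dystrophy locus, from 5.43 ± 1.30 to 20.8 ± 1.45 CPM (1.92). Every KO library exceeded every WT library in both genes. Six2, Six3 and Six6, genes of kidney, forebrain and eye, were not tested. In skeletal muscle markers (1 of 10 higher, 1 lower, 3 not called) the sums were 3.18 to 3.29 CPM in WT and 11.4 to 12.4 CPM in KO. The risen gene was Actn3 (0.572 to 10.3 CPM), and Myog and Myf5 had no count.

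**Figure D3:**
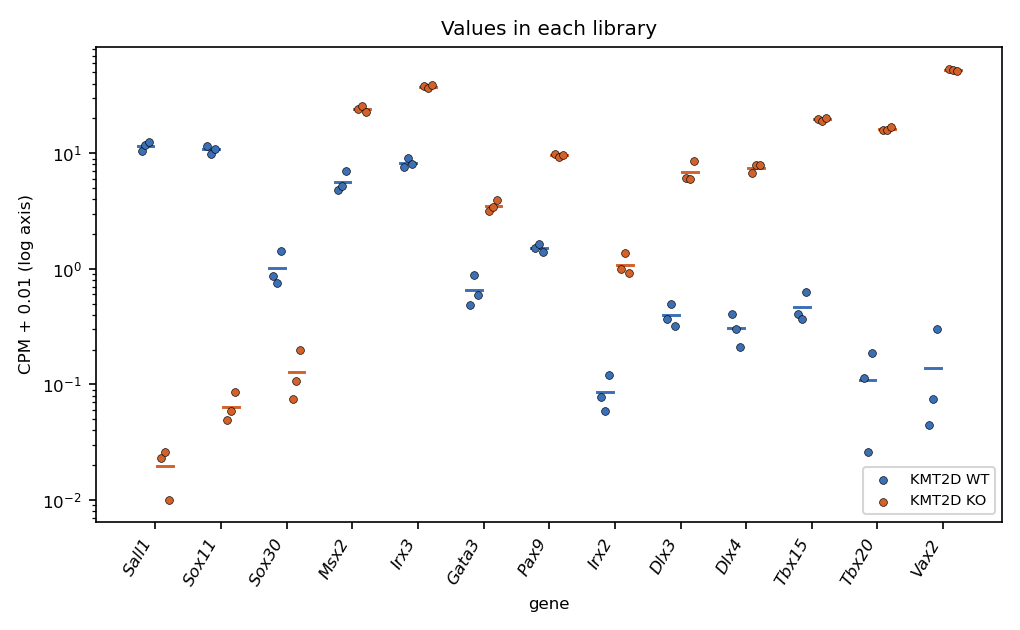
CPM with 0.01 added (log axis) of members called beyond a log2 fold change of 2 without overlap, at most 2 rises and 2 falls a family; each point is 1 library and each line the mean of a group of 3. Sall1, Sox11 and Sox30 are higher in KMT2D WT and the other genes in KMT2D KO.

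The largest falls were in a SALL and in a SOX gene. Sall1, a zinc finger repressor of kidney, limb and ear development, had 10.5, 11.8 and 12.5 CPM in WT and 0.0130, 0.0163 and 0 CPM in KO. Only 2 fragments were counted over the KO libraries against 1905 in WT, a ratio of 1104 (exact 95% binomial interval 305.1 to 9120, counting error only; edgeR adjusted p = 4.5e-13). Sall1 passed the filter through WT only, which fixed its direction. Sall2, a more widely expressed relative, rose from 20.0 ± 0.635 to 31.6 ± 1.60 CPM (0.66). Sall3 and Sall4 were too low to test.

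Sox11, of the SOXC subgroup that acts in neuronal and mesenchymal progenitors (mm9 chromosome 12, 28019133 to 28027583), had 11.6, 9.85 and 10.9 CPM in WT and 0.0391, 0.0488 and 0.0752 CPM in KO (log2 fold change -7.63, SE 0.24, adjusted p = 6.7e-13). The other SOXC genes moved slightly the other way. Sox4 had 168 ± 7.71 and 213 ± 8.80 CPM (0.34), and Sox12 had 20.0 ± 1.89 and 26.2 ± 1.78 CPM (0.39). All 3 were called, with Sox11 near zero in KO and Sox4 abundant in both groups. Sox30, a factor of male germ cells (mm9 chromosome 11, 45793812 to 45831494), had 0.855, 0.743 and 1.41 CPM in WT and 0.0652, 0.0977 and 0.188 CPM in KO (-3.12, SE 0.55, adjusted p = 0.00014). Sox13, of the SOXD subgroup, rose from 2.98 ± 0.664 to 4.46 ± 0.292 CPM (0.57).

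Among the 8 tested members under 1 CPM in both groups, 4 fell, 0 rose and 4 were not called, and they are named here after their values were seen. Of all genes tested 35.5% fell and 35.4% rose. The 4 that fell had at most 0.114 CPM in any KO library and passed the filter through WT only, which fixed their direction. Sox7, a factor of endothelium, had 57, 76 and 10 counts in WT and 4, 1 and 0 in KO (log2 fold change -4.89). Sox6, of the SOXD subgroup like Sox13, had 0.597 and 0.0687 CPM (-3.07). Sox15 (-2.68), which shares exonic sequence with Mpdu1, and Gata6 (-2.63), an endoderm factor that shares exonic sequence with 1010001N08Rik, fell from under 0.3 CPM. The SOX family, with 9 tested members, held 5 of the 12 falls. All 5 were genes of low or moderate level that passed the filter through WT only, so the count does not describe the family. The endothelial genes Pecam1 (0.613 and 0.211 CPM), Cdh5 (0.202 and 0.140 CPM) and Kdr (0.132 and 0.0293 CPM) were low in both groups beside Sox7. The 10 endothelial markers, of which Egfl7 rose, Pecam1 fell and 2 were not called, had sums of 5.46 to 7.23 CPM in WT and 9.83 to 10.6 CPM in KO. Lhx2, Msx1, Pbx4 and Sox8 were not called.

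**Figure D4:**
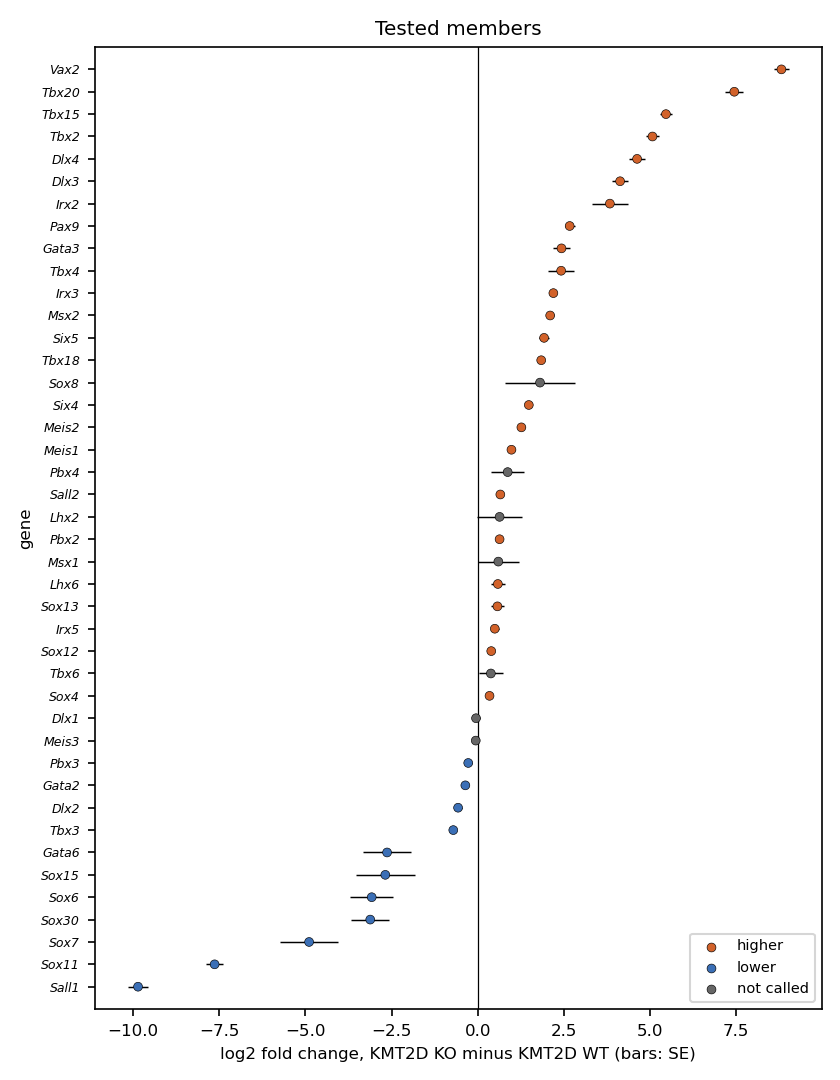
Log2 fold change (KMT2D KO minus KMT2D WT, horizontal axis) of tested members with its standard error, ordered by size; colours give the edgeR call. Values run from -9.85 for Sall1 to 8.81 for Vax2, and the bars are wide for scarce genes such as Sox8, Sox7 and Sox15.

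MEIS and PBX proteins are homeodomain cofactors that bind DNA together with HOX and other factors. Of the 7 MEIS and PBX genes 6 exceeded 1 CPM in both groups. Meis1 rose from 10.2 ± 0.448 to 20.1 ± 1.45 CPM (log2 fold change 0.98) and Meis2 from 19.3 ± 3.21 to 46.2 ± 2.26 CPM (1.27). Meis3 had 23.0 ± 1.31 and 22.2 ± 0.644 CPM and was not called (adjusted p = 0.53). Pbx2 rose from 37.1 ± 3.42 to 57.7 ± 0.464 CPM (0.63). The fall of Pbx3 from 18.6 ± 3.04 to 15.3 ± 0.794 CPM (-0.28) was a marginal call (adjusted p = 0.036). It was lost without WT replicate 3, where the log2 fold change shrank to -0.13 (adjusted p = 0.18). It was also lost without any 1 of the KO replicates, where the log2 fold change stayed between -0.31 and -0.23 (adjusted p of 0.0562 to 0.135, where all alternatives gave 0.00556 to 1.0).

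Among the LIM-homeodomain genes Lhx6, a factor of interneurons and tooth mesenchyme, was the only one above 1 CPM. It had 2.15, 3.67 and 2.97 CPM in WT and 4.98, 4.77 and 3.40 CPM in KO, with overlapping libraries (log2 fold change 0.58, adjusted p = 0.022). That call was lost without WT replicate 1 (log2 fold change 0.40, adjusted p = 0.0921), without KO replicate 1 (0.49, adjusted p = 0.102) or 2 (0.53, adjusted p = 0.0751), and with library size as the only scaling (0.47, adjusted p = 0.0601), where all alternatives gave an adjusted p of 0.00149 to 1.0. No count was found for Lhx1 and Lhx3, nor for Dlx5, Pax1, Pax5 and Sox14, which makes 6 members without a count in any library.

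To rank members against each other, levels were expressed as CPM per kilobase of exon. On that scale Sox4 led both groups, at 56.9 ± 2.61 in WT and 72.1 ± 2.98 in KO. In WT it was followed by Tbx3 at 20.2 ± 1.51, and then by Pbx2 (13.3 ± 1.22), Meis3 (13.0 ± 0.736) and Tbx18 (12.5 ± 0.213), whose libraries overlapped each other. In KO the next were Tbx18 at 44.8 ± 1.24 and Vax2 at 42.8 ± 0.915, whose libraries overlapped, then Pbx2 at 20.6 ± 0.166. Vax2, at 0.105 per kilobase in WT, thus stood beside Tbx18 in KO.

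Several members lie beside each other in the genome. With starts at most 1 Mb apart, a distance chosen after the values were seen, 24 members formed 10 groups in the mm9 coordinates of the files. In 4 of these groups 2 genes were called, and in all 4 they were called in the same direction, higher. Of all tested members 56.8% were higher and 27.3% lower, and of all genes tested 35.4% and 35.5%. Whether neighbours shared a direction beyond these shares was not tested. The 4 groups included Tbx2 (chromosome 11, 85646117 to 85655450) with Tbx4, Dlx3 (chromosome 11, 94981431 to 94986605) with Dlx4, and Irx3 (chromosome 8, 94322410 to 94325553) with Irx5. In the other groups at most 1 gene was called, and Tbx3 fell beside a silent Tbx5 and Dlx2 fell beside Dlx1.

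**Figure D5:**
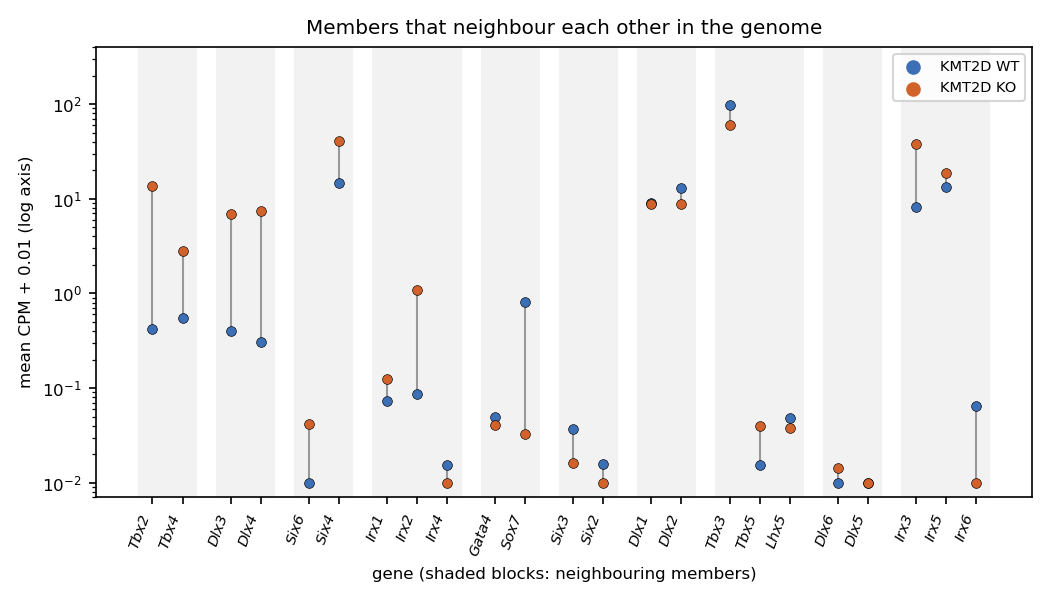
Mean CPM with 0.01 added (log axis) in KMT2D WT and KMT2D KO of members that lie within 1 Mb of another member; shaded blocks join neighbours and grey lines join the groups of a gene. Tbx2 with Tbx4, Dlx3 with Dlx4 and Irx3 with Irx5 are both higher in KMT2D KO.

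The surroundings of Vax2 changed with it. Vax2 lies on chromosome 6 (83661258 to 83688298, plus strand), and all 10 other tested genes within 200 kb were higher in KO, with a median log2 fold change of 2.30. Tested genes of the whole chromosome had a median of 0.42. Vax2os, a non-coding RNA on the opposite strand whose gene body covers the start of Vax2, had 0.188, 0 and 0 CPM in WT and 5.88, 4.90 and 5.77 CPM in KO (6.33, adjusted p = 2.1e-08). Atp6v1b1, a proton pump subunit gene that starts 4713 bases after the end of Vax2, had 0, 0.0323 and 0 CPM in WT and 2.67, 2.52 and 3.31 CPM in KO. Both were near zero in WT, as Vax2 was. Neighbours that were already expressed in WT rose as well, such as Paip2b (14.9 to 71.5 CPM, 2.26), Nagk (25.7 to 77.7 CPM, 1.59) and Zfp638 (101 to 166 CPM, 0.71). Within 1 Mb 28 of 38 tested genes were higher and 5 lower. Counts were made over exons, and no exon of Vax2 overlapped an exon of another gene, although the gene bodies of Vax2 and Vax2os overlap. They were made without regard to strand, so the strand a fragment came from cannot be told there.

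Around other members the directions were mixed. The nearest tested gene on either side was examined for each of 13 further members called beyond a log2 fold change of 2 without overlap, which makes 26 comparisons. In 13 the neighbour was called in the direction of the member, in 8 in the opposite direction and in 5 not at all, where 35.4% of all genes tested were called higher and 35.5% lower. Dlx3 and Dlx4 are neighbours of each other, so that pair was counted from both sides. Of 9 tested genes within 200 kb of Dlx3, 7 were higher and 2 not called. Tbx15 and Tbx20 rose with no risen gene among those tested within 1 Mb, of which 4 of 8 and 3 of 4 fell. Beside Sall1 (chromosome 8, 91551143 to 91568061) no other gene was tested within 200 kb. Within 1 Mb 5 of 7 tested genes were lower and 1 higher, and Cyld, 275298 bases away at lower coordinates, had a log2 fold change of -0.50. The next tested gene at higher coordinates, Tox3, lies 1202950 bases away. Tox3 had 72 counts in WT and 0 in KO, at least 27-fold lower with a floor of 3 counts over the group. Median log2 fold changes of the chromosomes that carry tested members ran from -0.54 to 0.42, and subtracting them changed the sign of 0 of the 44 members.

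Partner genes were read from lists written with earlier results of these data known. HOX genes, which MEIS and PBX proteins accompany on DNA, were nearly silent in both groups. All 39 were under 1 CPM in each group, 10 had no count, and their summed level ran from 2.09 to 2.37 CPM in WT and from 2.09 to 2.65 CPM in KO. Among those that could be tested, Hoxc4 rose (0.0588 to 0.590 CPM) and Hoxc13 was not called. Among the related PREP genes Pknox1 rose from 15.1 to 24.6 CPM (log2 fold change 0.70) and Pknox2 from 0.284 to 10.7 CPM (5.12).

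The EYA and DACH partners of the sine oculis-related factors did not rise together. Of 5 tested, Eya4 rose from 4.07 ± 0.589 to 10.8 ± 0.717 CPM (log2 fold change 1.41), while the corepressor gene Dach2 fell from 6.98 ± 1.07 to 0.0223 ± 0.0133 CPM (-8.24, adjusted p = 1.3e-11) and the scarce Dach1 fell too. Eya1 and Eya3 were not called. Of 8 tested partners of LIM-homeodomain proteins 6 rose, among them Ldb2 (0.296 to 6.84 CPM, 4.52) and Lmo4 (69.7 to 180 CPM, 1.37), and 2 fell, among them Lmo1 (1.11 to 0.0814 CPM, -3.84). The GATA cofactor gene Zfpm2 fell from 38.9 ± 4.80 to 12.5 ± 1.34 CPM (-1.63), and Zfpm1 was not called.

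Corepressor genes moved in both directions. Of 11 genes of the NuRD complex, which SALL proteins recruit, 3 rose and 3 fell while 5 were not called, and the list had a median log2 fold change of -0.05. Mta2 (0.35) and Hdac1 (0.32) were among those that rose, and Mbd3 (-0.76) and Hdac2 (-0.48) among those that fell. Of 6 TLE corepressor genes 3 rose, 1 fell and 2 were not called, and Tle2 rose most (12.2 to 39.8 CPM, 1.71), then Tle4 (0.44), while Tle6 fell (-0.32). Of 27 further factors of mesenchyme and head 19 were under 1 CPM in both groups, and among the 9 tested there were 4 rises, 3 falls and 2 genes not called. Prrx1, a mesenchyme factor, had 622 ± 35.5 and 947 ± 18.2 CPM (0.61), the tendon factor Mkx rose from 2.65 to 23.3 CPM (3.14), Shox2 rose from 0.919 to 1.98 CPM (1.10), Isl1 fell from 1.44 to 0.0445 CPM (-4.89) and Prrx2 fell from 57.7 to 33.9 CPM (-0.77). En1 (64.5 and 60.9 CPM) and Emx2 (19.1 and 20.0 CPM), position factors of the neural tube and limb, were on in both groups and not called. Of 8 antisense or divergent non-coding genes found in the files 3 were tested. Vax2os rose, Dlx1as was not called, and the scarce Sox2ot, which lies at Sox2 and so beside no member, rose.

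Markers of further cell types were read beside the SOX and homeobox genes. The 10 Schwann cell markers, 4 of them higher, 3 lower and 1 not called, had sums of 39.7 to 45.4 CPM in WT and 169 to 182 CPM in KO. Ncam1 (26.0 to 118 CPM) and Egr2 (8.25 to 53.0 CPM) gave most of the counts in the KO sum, while S100b fell from 4.47 to 0.181 CPM. Of 9 chondrocyte markers found 2 rose, 1 fell and 6 were not tested, with sums of 7.09 to 10.4 CPM and 11.8 to 13.3 CPM. Of the 14 cerebellum markers 3 rose, 2 fell and 9 were not tested, with sums of 2.55 to 3.64 CPM and 4.41 to 6.07 CPM. Of the 12 melanocyte markers 1 rose, 1 was not called and 10 were not tested, with sums of 1.03 to 1.85 CPM and 1.79 to 2.12 CPM. Of the 10 fibroblast markers 6 rose, among them Col3a1 (836 to 7661 CPM), 3 fell, among them Twist2 (65.0 to 3.97 CPM), and 1 was not called. The part of these marker levels in the results on the members was not tested.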

How the data were processed

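RNA was sequenced in 6 libraries, 3 labelled KMT2D WT and 3 KMT2D KO. The deposited values are whole-number counts of fragments per gene, which featureCounts 1.5.2 produced from the exons in an mm9 annotation, per the file headers. No strand, multi-mapping or multi-overlap option was set there, so both strands were counted together and fragments shared by genes are left out by default. STAR and HTSeq are named in the submitters' processing notes without a role. The genes and lists were chosen with earlier results of these data known.

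Counts were tested with edgeR 4.0.16 (R 4.3.3), TMM scaling, the default filter by group and group as the only term, with Benjamini-Hochberg adjustment over 14579 genes. Alternatives were RLE, library size alone, DESeq2 1.42.0, limma 3.58.1 voom, no filter, only genes averaging 1 CPM, robust fitting, the replicate number as a block, glmTreat and leaving out each library. Members at 1 CPM in a group are named. Those called beyond a log2 fold change of 2 without overlap are given by library, at most 2 rises and 2 falls a family, with their nearest tested genes. From each partner list up to 2 rises and 2 falls at 1 CPM were taken, and scarcer partners and the marker genes named were picked after their values were seen. Total counts of 43168605 to 79718782 set a floor of 3 counts at 0.0182 CPM in KMT2D WT and 0.0157 in KMT2D KO. For positions, 100 genes on several chromosomes or over 3 Mb long were left out. Promoters are of GRCm38.p6 and were not joined to mm9 coordinates. Some genes and alleles are not reported here.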

Additional observations from a re-analysis of the deposited data

How the results depend on the processing

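The count of members called lay between 34 and 39 under every alternative apart from the filter at a mean of 1 CPM (31) and glmTreat with a threshold of 1 (log2), which left 23 called, 6 of them lower. The filter at a mean of 1 CPM left 7 lower, since it removed scarce genes from the test. Leaving out 1 library gave 34 to 38 members called, 24 to 26 higher and 10 to 13 lower. At a level of 0.5 CPM, 5 members were on in KMT2D WT only. Leaving out 1 library, an alternative chosen after seeing the data, gave 9 to 11 members on in KMT2D KO only, 3 in KMT2D WT only and 23 in both. The members behind these numbers changed. Without KMT2D WT replicate 3, Sox7 (0.975 and 1.23 CPM in the remaining WT libraries) took the place of Sox30 (0.855 and 0.743 CPM). Without KMT2D KO replicate 2, Irx2 (0.977 and 0.902 CPM in KO) and Tbx6 (0.951 and 0.996 CPM) dropped out and Pbx4 (0.860 and 1.20 CPM) came in. Of 537 values of the 36 named members under 15 alternatives, 516 kept direction and side of the threshold, 21 lost the call (13 of them with glmTreat, the others in Lhx6 and Pbx3) and 0 changed sign. With the replicate block 37 members were called, as without it. Same-numbered libraries deviated together with correlations of 0.006, 0.067 and 0.047, and not every library correlated best with its own number. With library size as the only scaling, all tested genes had a median of -0.11 (log2). Differences in members under 0.3 CPM rest on few fragments.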
